A study of Pseudotsuga menziesii with 72 samples.

Results

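Among 180879 transcripts counted in needles of Douglas-fir (Pseudotsuga menziesii), 3 formed a late-night pair, meaning that they stood high at both 2:00 and 6:00 and lower at the other 4 clock times. They are psme_t172064, psme_t076950 and psme_t057585. They were selected on their measured levels, given in CPM (each count scaled to a common library total) and averaged over the libraries of each clock time. A transcript qualified if its means at 2:00 and 6:00 lay within 1.5-fold of each other and both were at least 2 times each of the means at 10:00, 14:00, 18:00 and 22:00. It also had to average from 5 to under 1000 CPM over the libraries used and at least 1 CPM in every tree, which 16040 transcripts did. The list was open to 200 transcripts, and 3 met all limits.

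Plants time much of their daily gene expression with a circadian clock, a loop of transcription factors that repress and activate one another, which light and temperature set to the local day. In conifer needles, as in other leaves, photosynthesis runs by day, while reserves laid down by day are drawn on at night. Among known plant clock genes, some peak around dawn, such as LHY, and others towards evening, such as TOC1. The tables give each of the 3 transcripts as an identifier without a gene name, so no function is assigned to any of them.

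The needles came from 6 trees aged 3 years. They form 3 half-sib families, with trees 1A and 1B in the first, 2A and 2B in the second and 3A and 3B in the third. All derived from 1 low-elevation source in southwestern Oregon and grew together at Corvallis. Each tree was sampled every 4 h over 2 consecutive days in early September, and polyA RNA of each sample, a pool of needles from 4 sides of the tree, was sequenced as a strand-specific library. The day 2 collections and the day 1 collections each covered 2:00, 6:00, 10:00, 14:00, 18:00 and 22:00, so that 12 libraries belong to each tree and each clock time.

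Libraries held 10.3 to 55.9 M counts (median 22.8 M). Of the 72 libraries, 70 were used. The other 2 are labelled as trees 1B and 2A at 6:00 of day 1, and each lay nearest the other's tree when compared over 16040 transcripts with the trees' remaining libraries. Their correlations were 0.760 and 0.631 with the other's tree, against -0.26 and -0.32 with the labelled tree. All 70 libraries used lay nearest their own tree (lowest correlation 0.496). This leaves 10 libraries at 6:00 and 12 at every other clock time, 22 late-night libraries against 48 at the other 4 clock times. The trees are the units of replication, each tree was sampled repeatedly, and each day is a single date.

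In the means that chose them, the 3 transcripts had late-night averages of 15.7 CPM (psme_t172064), 105 CPM (psme_t076950) and 17.6 CPM (psme_t057585), against 4.00, 31.3 and 5.55 CPM over the other 4 clock times. Their late-night levels were thus 3.91, 3.36 and 3.17 times the others. As the limits fixed this contrast, these values describe the 3 transcripts and were not tested. As whole needles were sequenced, a change of level per cell and a change in the mix of cells cannot be told apart. In each transcript the highest of the other 4 means was that at 22:00. The lower late-night mean was 2.28 times it in psme_t172064, 2.05 times in psme_t076950 and 2.45 times in psme_t057585, the last of which had almost equal means at 6:00 and 2:00 (ratio 1.02). The 6:00 mean was the higher by 1.39 times in psme_t172064 and by 1.2 times in psme_t076950.

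Few transcripts came near both limits. Just outside stood psme_t047946, whose lower late-night mean was 1.92 times the highest other, and psme_t024188, at 1.88 times. With a limit of 1.5 times in place of 2, 48 transcripts would have qualified, and with 1.2 times 305 would have. Without the limit on 22:00, the list held 61 transcripts, without that on 10:00 it held 26, and without both it held 230. Dropping the 1.5-fold limit between 6:00 and 2:00 admitted 1 more transcript, psme_t039749, which stood higher at 6:00. The same limits applied to other pairs of neighbouring clock times gave 10 transcripts for 6:00 and 10:00, 15 for 10:00 and 14:00, 34 for 14:00 and 18:00, 1 for 18:00 and 22:00, and 0 for 22:00 and 2:00.

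**Figure D1:**
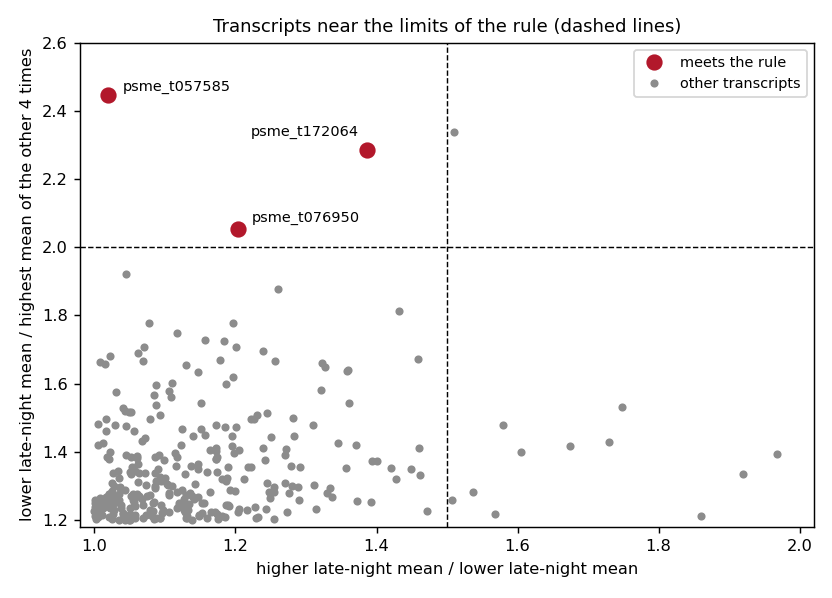
Position of the 3 qualifying transcripts (large red points) and of other transcripts with a ratio of at least 1.2 (small grey points) against the limits, drawn as dashed lines. The horizontal axis gives the higher over the lower late-night mean and the vertical axis the lower late-night mean over the highest mean of the other 4 clock times. The 3 lie at 2.05 to 2.45 on the vertical axis, above every grey point left of the 1.5-fold line, of which the highest lies at 1.92.

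The most abundant of the 3, psme_t076950, averaged 54.3 CPM over the libraries used. Its libraries ran from 36.8 to 158 CPM at 2:00 (median 83.2) and from 41.1 to 200.0 CPM at 6:00 (median 115). At 10:00 they ran from 5.71 to 76.2 CPM (median 35.3), at 14:00 from 5.73 to 36.2 (median 20.3), at 18:00 from 11.1 to 51.8 (median 16.2) and at 22:00 from 26.1 to 100.4 (median 38.5). The late-night libraries overlapped the others: 11 of 22 lay above all 48 others, and 13 of the 48 lay above the lowest late-night library. Its mean was 115 ± 49.9 CPM at 6:00 (SD, n = 10) and 95.5 ± 39.6 CPM at 2:00 (SD, n = 12), which lie within each other's spread. The means at 14:00 and 18:00, 21.3 ± 11.2 and 21.6 ± 11.7 CPM (SD, n = 12 each), were the lowest and lay within each other's spread.

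The level of psme_t172064 was lower, at 7.59 CPM on average, and more uneven. Its libraries ran from 3.94 to 40.8 CPM at 2:00 (median 8.06) and from 5.44 to 44.1 CPM at 6:00 (median 12.8). At 10:00 the range was 0.307 to 16.7 CPM (median 2.67), at 14:00 0.886 to 6.38 (median 2.26), at 18:00 1.42 to 3.73 (median 2.89) and at 22:00 2.65 to 9.79 (median 5.72). Of the late-night libraries, 6 of 22 stood above all others, and 17 of the 48 others stood above the lowest late-night one. The mean at 6:00 was 18.2 ± 13.2 CPM (SD, n = 10) and that at 2:00 was 13.1 ± 11 CPM (SD, n = 12), so the spread between libraries was close to the mean itself. Its libraries held from 8 counts, in tree 1B at 10:00 of day 2, to 1236 counts at late night, and precision is lowest where counts are fewest.

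The remaining transcript, psme_t057585, averaged 9.33 CPM. It ran from 5.30 to 43.0 CPM at 2:00 (median 13.2) and from 5.45 to 55.6 CPM at 6:00 (median 11.3). At 10:00 it ran from 1.15 to 19.6 CPM (median 4.48), at 14:00 from 0.801 to 20.4 (median 4.00), at 18:00 from 0.815 to 6.49 (median 3.90) and at 22:00 from 2.21 to 13.6 (median 6.55). It overlapped most, with 5 of 22 late-night libraries above all others and 21 of the 48 others above the lowest late-night one. Its means at 6:00 and 2:00, 17.7 ± 16.8 (SD, n = 10) and 17.4 ± 12.3 CPM (SD, n = 12), did not differ beyond that spread.

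Medians gave a different picture from means for the 2 less abundant transcripts. Taking the median library of each clock time, the late-night level was 3.59 times the other 4 in psme_t076950, 3.09 times in psme_t172064 and 2.59 times in psme_t057585. The lower late-night median was then 2.16 times the highest other in psme_t076950, 1.41 times in psme_t172064 and 1.72 times in psme_t057585, so that 1 of the 3 still met the limits. The means of psme_t172064 and psme_t057585 therefore rest in part on a few high libraries, which were those of trees 3A and 3B on day 1.

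**Figure D2:**
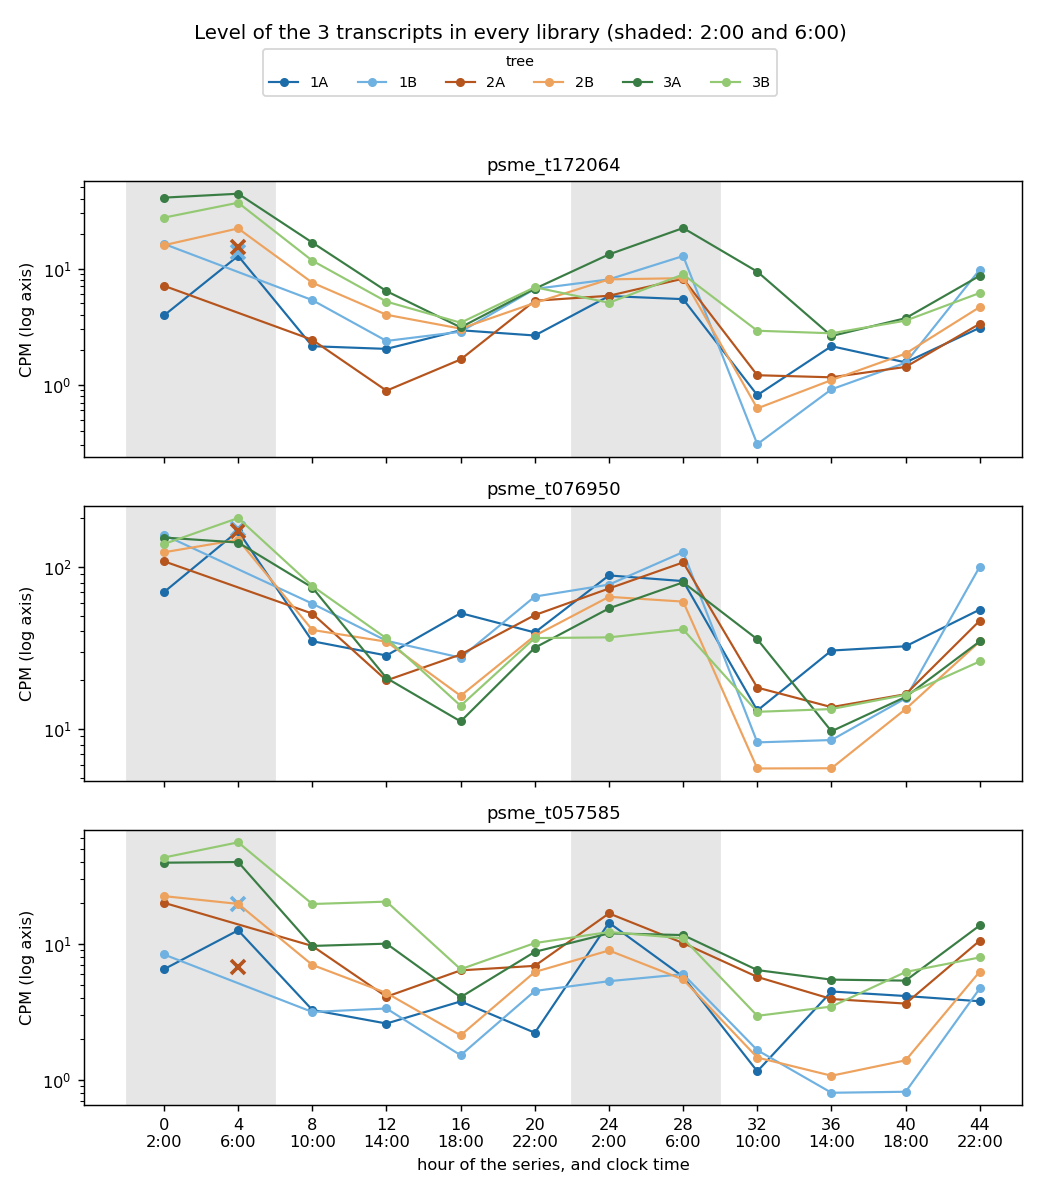
Level of the 3 transcripts in every library over the series. The horizontal axis gives the hour of the series and the clock time, the vertical axis CPM on a log scale, each line is 1 tree, shaded bands mark 2:00 and 6:00, and crosses mark the 2 libraries left out, coloured by their labelled tree. Each line with both libraries drops between 6:00 and 10:00, and trees 3A and 3B lie highest in psme_t172064 and psme_t057585 at late night of day 1.

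The drop after 6:00 was shared by every pair of libraries. Between 6:00 and 10:00 of the same day all 3 transcripts were lower at 10:00 in 10 of 10 pairs of libraries from the same tree. The median ratio of 10:00 to 6:00 was 0.242 in psme_t172064 (range 0.0239 to 0.421), 0.243 in psme_t076950 (range 0.0671 to 0.528) and 0.273 in psme_t057585 (range 0.202 to 0.564). The evening step was in the other direction. The 22:00 library was higher than the 18:00 one in 11 of 12 pairs for psme_t172064 and psme_t076950 and in 10 of 12 for psme_t057585, with median ratios of 2.24, 2.36 and 2.35.

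Between these steps the courses parted. From 22:00 of day 1 to 2:00 of day 2, psme_t076950 and psme_t057585 were higher at 2:00 in 6 of 6 trees and psme_t172064 in 5 of 6, with median ratios of 1.6, 1.4 and 1.4. Between 2:00 and 6:00, psme_t172064 was higher at 6:00 in 9 of 10 pairs (median ratio 1.4) and psme_t076950 in 7 of 10 (median ratio 1.32). For psme_t057585 the 6:00 library was higher in 4 of 10 pairs and lower in 6 (median ratio 0.935). From 14:00 to 18:00 no transcript moved one way in all trees: psme_t172064 and psme_t076950 were higher at 18:00 in 8 of 12 pairs and psme_t057585 in 5 of 12. All these steps are descriptions of means that the limits used in part.

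Single trees showed the pattern to different degrees. The ratio of the late-night mean to the mean of the other libraries of the same tree ran from 3.23 to 4.20 in psme_t172064, from 2.85 to 4.21 in psme_t076950 and from 2.46 to 3.79 in psme_t057585. Within a tree, the full set of ratio limits was met in 3 of 6 trees by psme_t172064, in 1 of 6 by psme_t076950 and in 4 of 6 by psme_t057585. Neither 1B nor 2A met them for any of the 3, and 2A gave the lowest ratio of psme_t057585. Each of these trees has 3 late-night libraries, 1 of day 1 and 2 of day 2, when late-night levels were lower. Their other libraries cover both days evenly, so their ratios are not over the same collections as those of the other trees. All late-night libraries of a tree lay above all its other libraries in 3 of 6 trees for psme_t172064, 3 of 6 for psme_t076950 and 2 of 6 for psme_t057585. Taken within 1 tree and 1 day, they did so in 10 of 12 cases for psme_t172064, 11 of 12 for psme_t076950 and 9 of 12 for psme_t057585.

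To ask whether the late-night ratio differed between trees, which the limits did not use, a term for tree by late night (2:00 and 6:00 against the other 4 clock times) was tested with edgeR's quasi-likelihood F test and Benjamini-Hochberg adjustment over 52820 transcripts. Of all transcripts tested, 0.0265% passed at an adjusted p under 0.05, and 0 of the 3 did. At an unadjusted p under 0.05 the number was also 0 of 3, with F values of 0.433 for psme_t172064, 0.601 for psme_t076950 and 0.155 for psme_t057585. The fitted log2 ratios of single trees spanned 0.71, 0.79 and 0.36, so differences of that size between trees were not resolved with 11 or 12 libraries a tree. DESeq2's likelihood ratio test and limma on the authors' normalized values also passed 0 of the 3.

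**Figure D3:**
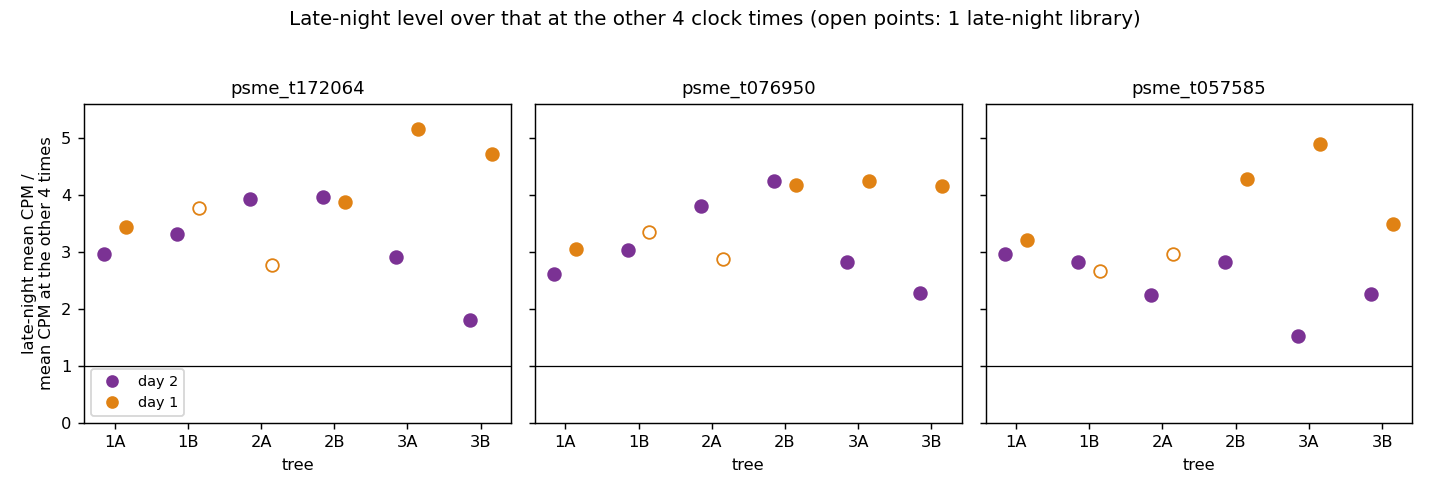
Late-night level relative to the other clock times in each tree on each day. The vertical axis gives the mean CPM at 2:00 and 6:00 over the mean CPM at the other 4 clock times, the horizontal axis the tree, with day 2 (purple) left of day 1 (orange), and open points rest on 1 late-night library. All points lie above 1, the lowest at 1.52 (psme_t057585, tree 3A, day 2) and the highest at 5.16 (psme_t172064, tree 3A, day 1).

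The level itself differed widely between trees in 2 of the 3 transcripts. Tree means of psme_t172064 were 14.8 CPM (tree 3A), 10.1 CPM (3B), 6.85 CPM (2B), 6.09 CPM (1B), 3.78 CPM (1A) and 3.5 CPM (2A). For psme_t057585 they were 16.6 CPM (tree 3B), 13.8 CPM (3A), 8.86 CPM (2A), 7.18 CPM (2B), 5.36 CPM (1A) and 3.64 CPM (1B). Over both days the 2 transcripts thus stood highest in the 2 trees of family 3, while the order of the other 4 trees differed. This ranking did not fully hold at late night of day 2. There psme_t172064 stood at 17.8 CPM in 3A but at 6.98 CPM in 3B, against 10.4 CPM in 1B. For psme_t057585 both trees of family 3, at 11.7 CPM in 3A and 11.6 CPM in 3B, stood below 2A at 13.4 CPM. At the other clock times of day 2, psme_t172064 stood at 3.85 CPM in 3B against 3.14 CPM in 1B. There psme_t057585 stood at 5.13 CPM in 3B against 5.94 CPM in 2A. Each mean rests on 11 or 12 libraries, whose SD includes the daily course and ran from 2.64 to 14.2 CPM for psme_t172064 and from 2.38 to 16.5 CPM for psme_t057585. Tree means of psme_t076950 ran from 48.5 CPM in 2A to 61.7 CPM in 1B. The means of trees 1B and 2A lack the 6:00 library of day 1, a time of high levels, so they are not over the same collections as the others and the order of close means is not firm.

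A test of level between trees, added after the data were seen, passed psme_t172064 (F = 15.9, adjusted p = 1.56e-09, edgeR) and psme_t057585 (F = 22.4, adjusted p = 4.98e-12), with fitted log2 spans over the trees of 1.8 and 2.09. It did not pass psme_t076950 (F = 2.30, adjusted p = 0.0602, span 0.79), whose adjusted p ran from 0.0248 to 0.713 over 12 alternative settings and passed in 6 of them. Of all transcripts 92.5% passed, so 2 of 3 is no more than that share. The test treats a tree's libraries as replicates and compares these 6 trees, not families.

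On day 2 the 3 transcripts stood lower than on day 1 at late night. In psme_t076950 the 2:00 libraries held 36.8 to 88.6 CPM on day 2 (median 69.4), against 69.8 to 158 CPM on day 1 (median 131). Its 6:00 libraries held 41.1 to 123 CPM on day 2 (median 81.0), against 141, 147, 166 and 200.0 CPM on day 1. At 6:00 the days did not overlap, and at 2:00 the lowest day 1 library, of tree 1A, lay within the day 2 range.

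For psme_t172064, 2:00 libraries held 5.07 to 13.2 CPM on day 2 (median 6.94), against 3.94 to 40.8 CPM on day 1 (median 16.1). The 6:00 libraries held 5.44 to 22.3 CPM on day 2 (median 8.57), against 12.8, 22.1, 36.9 and 44.1 CPM on day 1. The ranges overlapped at both clock times. In psme_t057585, 2:00 libraries held 5.30 to 16.7 CPM on day 2 (median 12.0), against 6.49 to 43.0 CPM on day 1 (median 21.2), which overlap. Its 6:00 libraries held 5.45 to 11.6 CPM on day 2 (median 8.04), against 12.5, 19.6, 39.9 and 55.6 CPM on day 1, with no overlap.

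**Figure D4:**
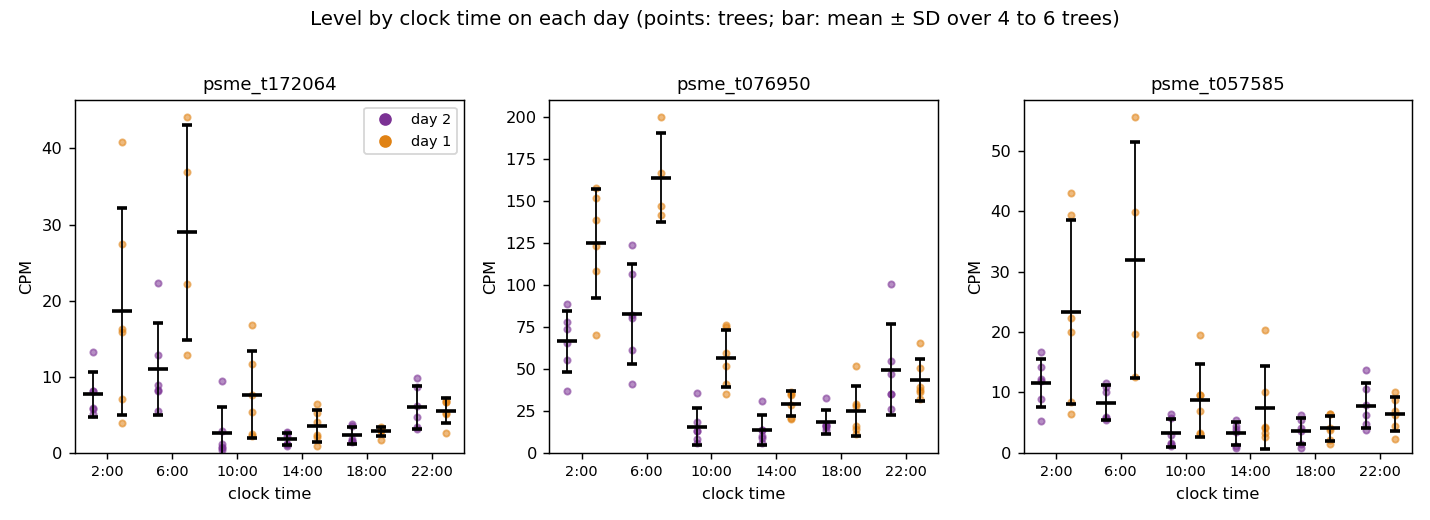
Level by clock time on day 2 (purple, left of each pair) and day 1 (orange, right). The vertical axis is CPM, points are trees, and bars are the mean ± SD over 6 trees, or 4 at 6:00 of day 1. The day 2 means lie below the day 1 means from 2:00 to 18:00 in all 3 transcripts. At 18:00 they are 2.28 against 2.83 CPM in psme_t172064, 18.3 against 24.9 in psme_t076950 and 3.58 against 4.05 in psme_t057585. At 22:00 the day 2 means lie above the day 1 means. There they are 5.95 against 5.54 CPM in psme_t172064, 49.5 against 43.5 in psme_t076950 and 7.80 against 6.43 in psme_t057585.

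Averaged over 2:00 and 6:00 within trees, the log2 change on day 2 relative to day 1 was -1.22 ± 0.25 (SE) in psme_t172064 (adjusted p = 0.00031, edgeR), -1.16 ± 0.25 in psme_t076950 (adjusted p = 0.000679) and -1.35 ± 0.24 in psme_t057585 (adjusted p = 4.95e-05). Thus 3 of 3 passed as lower on day 2, where 12.2% of all transcripts tested did. Each was lower on day 2 in 9 of 10 pairs of libraries from the same tree and clock time, and the call held in each alternative fit that tested the transcript. The limits averaged the days and did not use their difference, but an arithmetic mean gives more weight to the higher day. Read on day 2 alone, the limits were met by 0 of the 3 and by 7 other transcripts, and on day 1 alone by 9 transcripts, 2 of them among the 3 (psme_t076950 and psme_t057585).

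The other 4 clock times together were also lower on day 2. The log2 change was -0.82 ± 0.18 in psme_t172064 (adjusted p = 0.000448, edgeR), -0.91 ± 0.17 in psme_t076950 (adjusted p = 3.67e-05) and -0.69 ± 0.17 in psme_t057585 (adjusted p = 0.00164). Again 3 of 3 passed as lower on day 2, where 13.4% of all transcripts tested did. Without the tree as a replicate block 1 of the 3 passed: the adjusted p was 0.0668 for psme_t172064, 0.101 for psme_t057585 and 0.000575 for psme_t076950.

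The 4 clock times were not alike in this. At 10:00 psme_t076950 held 5.71 to 35.8 CPM on day 2 (median 12.9), against 34.8 to 76.2 CPM on day 1 (median 55.4), and at 14:00 it held 5.73 to 30.5 CPM (median 11.5), against 19.9 to 36.2 CPM (median 31.5). At 18:00 its ranges were 13.3 to 32.4 CPM on day 2 (median 16), against 11.1 to 51.8 CPM on day 1 (median 21.8), and at 22:00 they were 26.1 to 100.4 CPM (median 40.7), against 31.7 to 65.6 CPM (median 38.5). At 10:00 and 14:00 the ranges overlapped in part, and at 18:00 and 22:00 the range of one day lay within that of the other.

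At 10:00 psme_t172064 held 0.307 to 9.39 CPM on day 2 (median 1.01), against 2.14 to 16.7 CPM on day 1 (median 6.45), and at 14:00 it held 0.910 to 2.77 CPM (median 1.65), against 0.886 to 6.38 CPM (median 3.18). At 22:00 it held 3.09 to 9.79 CPM on day 2 (median 5.41), against 2.65 to 6.90 CPM on day 1 (median 5.97). At 10:00 psme_t057585 held 1.15 to 6.39 CPM on day 2 (median 2.30), against 3.15 to 19.6 CPM on day 1 (median 8.30), and at 14:00 it held 0.801 to 5.44 CPM (median 3.68), against 2.59 to 20.4 CPM (median 4.21). At 18:00 it held 0.815 to 6.19 CPM on day 2 (median 3.87), against 1.51 to 6.49 CPM on day 1 (median 3.90). At 22:00 it held 3.77 to 13.6 CPM on day 2 (median 7.08), against 2.21 to 10.1 CPM on day 1 (median 6.53). In both transcripts the ranges of the days overlapped at each of these clock times.

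Within those 4 clock times the pair that passed was 10:00 and 14:00, a split made after the data were seen. There the log2 change was -1.40 ± 0.27 in psme_t172064 (adjusted p = 3.58e-05, edgeR), -1.64 ± 0.25 in psme_t076950 (adjusted p = 5.94e-07) and -1.36 ± 0.25 in psme_t057585 (adjusted p = 1.81e-05). All 3 passed as lower on day 2, where 15.4% of all transcripts tested did. Libraries of the same tree and clock time were lower on day 2 in 10 of 12 pairs for psme_t172064 and in 11 of 12 for psme_t076950 and psme_t057585.

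At 18:00 and 22:00 the same comparison gave -0.24 ± 0.26 in psme_t172064, -0.18 ± 0.24 in psme_t076950 and -0.02 ± 0.24 in psme_t057585, and 0 of 3 passed, in edgeR or any of the other fits, where 7.32% of all transcripts passed in either direction. At an unadjusted p under 0.05 the number was also 0 of 3. Pairs of libraries were lower on day 2 in 7 of 12 cases for psme_t172064 and psme_t076950 and in 5 of 12 for psme_t057585. These values pool clock times that went opposite ways. In all 3 transcripts the day 2 mean was lower at 18:00 and higher at 22:00, and neither clock time was tested alone. The change at 10:00 and 14:00 minus that at 18:00 and 22:00 was -1.16 ± 0.37 in psme_t172064 (adjusted p = 0.032, edgeR), -1.46 ± 0.35 in psme_t076950 (adjusted p = 0.00313) and -1.34 ± 0.35 in psme_t057585 (adjusted p = 0.00667), and 5.32% of all transcripts passed in this direction. The size of this difference held over the alternative fits, from -1.37 to -0.94 in psme_t172064, from -1.72 to -1.24 in psme_t076950 and from -1.55 to -0.94 in psme_t057585, while the calls did not all hold. Without tree 2B 0 of the 3 passed, without tree 3B 1 did, and in the fit without a replicate block 1 did (psme_t076950, adjusted p = 0.04, against 0.367 for psme_t172064 and 0.228 for psme_t057585). The call of psme_t172064 was also lost without tree 1B (adjusted p = 0.127) and with no filter on low counts (adjusted p = 0.0614).

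**Figure D5:**
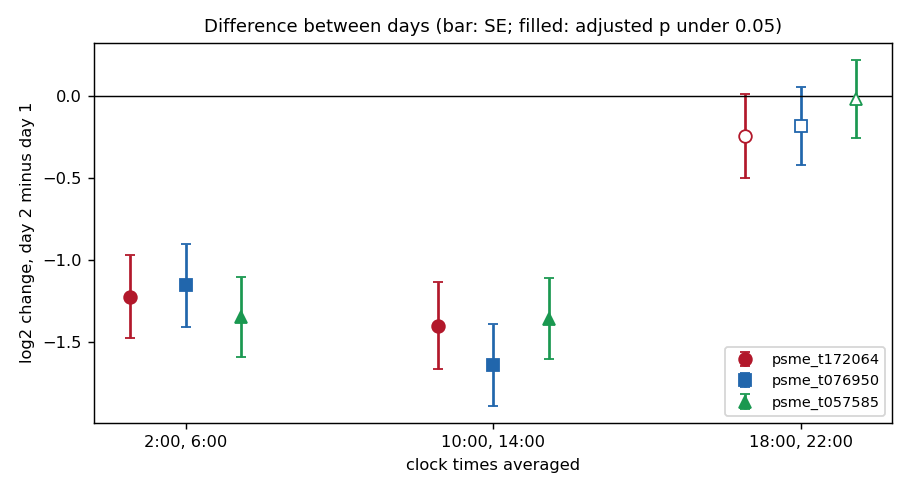
Fitted difference between days for the 3 transcripts at 3 pairs of clock times. The vertical axis is the log2 change, day 2 minus day 1, bars are the SE, and filled symbols passed at an adjusted p under 0.05 (edgeR). The values lie between -1.64 and -1.16 at 2:00 to 14:00 and between -0.24 and -0.02 at 18:00 and 22:00.

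The clock times at which a day difference passed, taken in pairs, are those of the first 4 collections of the series. On day 1 they belong to a stretch that earlier results of these data set apart from the last 8 collections. A change between days cannot be told apart from a shift after the first 4 collections in these levels. The late-night to 10:00 and 14:00 ratio is free of an added shift of that kind, as both its parts lie in the same stretch on each day. Its log2 change, day 2 minus day 1, was 0.18 ± 0.36 in psme_t172064, 0.48 ± 0.35 in psme_t076950 and 0.01 ± 0.30 in psme_t057585. In edgeR 0 of the 3 passed, where 1.26% of all transcripts did, and 0 of 3 had an unadjusted p under 0.05. DESeq2 and limma also passed 0 of 3. With all 4 other clock times in the ratio, where such a shift does not cancel, the changes were -0.40, -0.24 and -0.66. None of these 3 passed either, with 1 of 3 at an unadjusted p under 0.05 (psme_t057585, p = 0.0294, adjusted p = 0.193, edgeR).

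The change from 2:00 to 6:00 was also compared between days. Its log2 difference, day 2 minus day 1, was -0.32 ± 0.50 in psme_t172064, -0.31 ± 0.50 in psme_t076950 and -1.02 ± 0.48 in psme_t057585, and 0 of 3 passed in edgeR, beside 0.184% of all transcripts. The value of psme_t057585 had an unadjusted p of 0.0366 and an adjusted p of 0.388, and DESeq2 and limma passed 0 of 3 as well. The mean of psme_t057585 was 8.30 CPM at 6:00 and 11.5 CPM at 2:00 on day 2. On day 1 it was 31.9 CPM at 6:00 (4 trees, without 1B and 2A) and 23.3 CPM at 2:00 (6 trees). The day 1 means are thus not over the same trees.

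The 2 libraries left out were not used to choose the transcripts and are labelled 6:00 of day 1. In the library labelled 1B, psme_t172064 stood at 13.9 CPM (296 counts), psme_t076950 at 170.0 CPM (3620 counts) and psme_t057585 at 19.5 CPM (416 counts). All 3 were at least 2 times the highest mean of the other 4 clock times, where 0.829% of the 16040 transcripts within the level limits were (1.50% on TMM-scaled CPM, which corrects library totals for composition). In the library labelled 2A the values were 15.4 CPM (361 counts), 167 CPM (3905 counts) and 6.76 CPM (158 counts), and 2 of 3 reached 2 times that mean, where 0.723% of the 16040 did (0.630% on TMM-scaled CPM). The exception, psme_t057585, stood at 0.95 times its 22:00 mean and below the range of its other 6:00 libraries of day 1 (12.5 to 55.6 CPM). That range holds no library of trees 1B and 2A. This library lay nearest tree 1B, which had the lowest mean of psme_t057585 (3.64 CPM), while its labelled tree 2A averaged 8.86 CPM. Both means lack 6:00 of day 1. On day 1, tree 1B held 1.51 to 4.49 CPM at the other 4 clock times, below the 6.76 CPM, and 8.33 CPM at 2:00. Whether the tree of this library bears on its value was not tested. The 2 libraries left out are single libraries whose tree labels are in doubt, and the share of all transcripts is not limited to those that are high at 6:00.

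Over the 12 collections the 2 courses most alike were those of psme_t172064 and psme_t076950. Likeness was taken, by a rule set after the values were seen, as the root mean square difference between log2 collection means after each course was centred, and 16039 transcripts were compared with each. The 2 were each other's nearest, at 0.19, although their mean levels are 7.59 and 54.3 CPM. The limits that chose both transcripts used clock-time means of these same values. Some likeness between their courses is thus built in, and their rank is a description that was not tested. Next to both came psme_t030163, at 0.33 from psme_t172064 and 0.29 from psme_t076950. After it came psme_t039749 for psme_t172064 (0.35) and psme_t009789 for psme_t076950 (0.31).

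The nearest course to psme_t057585 was that of psme_t049788 (0.28), a transcript nearly as flat at late night (233 CPM at 6:00 and 217 CPM at 2:00) but with less contrast, since its 10:00 mean was 122 CPM. Then came psme_t076950 (0.34) and psme_t036241 (0.35), while psme_t172064 lay at 0.37. These distances describe mean courses, and the trees, libraries and depths behind them are shared by all transcripts. Those between qualifying transcripts are also shaped by the limits, which used the same values.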

How the data were processed

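Transcript counts come from 72 libraries, 1 per tree and collection. Per the submitters' processing notes, CASAVA 1.8, Bowtie2 2.2.3 and DESeq without a version were used, and the sources used here name no reference transcriptome. The deposited counts are raw whole numbers per transcript. The authors also deposited a table of normalized signal (41382 transcripts), equal to the count over 1 size factor per library (0.450 to 2.40, largest relative departure 7.55e-09). How reads shared by similar transcripts were counted is not stated. Libraries were placed by title, whose hours start at 2 AM per the labels' growth protocol. For 62 of 72 libraries a collection-time label differs from the title.

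The 3 transcripts, and the tests, were chosen with earlier results of these data known. The text names the 3 and the 2 transcripts just outside the limits. Others were named by likeness or by a limit dropped, after their values were seen.

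CPM is the count over the library total. Tests used edgeR 4.0.16 (R 4.3.3) quasi-likelihood F tests on 70 libraries with collection and tree, the tree as a replicate block because the labels name the same 6 trees at every collection. Trimmed-mean (TMM) factors were 0.744 to 1.17. Filtering (filterByExpr, thresholds of 10 counts in a library and 15 in total) left 52820 transcripts and 98.2% to 99.8% of counts, and Benjamini-Hochberg adjustment covered all of them, with a threshold of 0.05. Tests were two-sided where a direction is given. On simulated counts with known changes, edgeR's tests of late-night level, of the ratio between days and between trees, and of the step from 2:00 to 6:00 were tried. The other tests were not checked in this way. The simulation gave all transcripts the same spread and the trees no difference in level, unlike these data. Alternatives were DESeq2 1.42.0, limma 3.58.1 on log2 of the deposited normalized value plus 1, other filters, no replicate block, the 2 left-out libraries included under their labels or with tree labels exchanged, each tree left out, a tree by block term (first 4 against last 8 collections) and an adjusted p of 0.01. Tables and plots were made with Python 3.11.15, pandas 2.3.3 and matplotlib 3.10.9.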

Additional observations from a re-analysis of the deposited data

Results flagged for a closer look

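In 36 groups of 4 to 6 libraries from the same collection, 5 libraries stood apart from the rest by Dixon's criterion at the 95% level, where chance gives 1.8. Tree 3A on day 2 held 13.2 CPM of psme_t172064 at 2:00, with the other trees at 5.07 to 8.06 CPM, and 9.39 CPM at 10:00, with the others at 0.307 to 2.91 CPM. Tree 2A held 1.64 CPM of psme_t172064 at 18:00 of day 1, with the others at 2.85 to 3.41 CPM. Tree 1A on day 2 held 30.5 CPM of psme_t076950 at 14:00, with the others at 5.73 to 13.7 CPM, and 32.4 CPM at 18:00, with the others at 13.3 to 16.4 CPM.

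The difference between days also differed with the time of day, by a test chosen after the data were seen. The quantity was the log2 change of day 2 over day 1 at 10:00 and 14:00 minus that at 18:00 and 22:00. It was -1.16 in psme_t172064, -1.46 in psme_t076950 and -1.34 in psme_t057585. All passed edgeR's adjusted test, as did 5.32% of all transcripts in this direction. The calls did not all hold. Over the alternative fits psme_t172064 passed in 8 of 13, psme_t076950 in 13 of 14 and psme_t057585 in 10 of 13. Without tree 2B none of them passed.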

How the results depend on the processing

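The late-night difference between days kept its direction and passed in every alternative fit that tested the transcript. The filter of at least 1 CPM in every library left only psme_t076950 to test, so the number passing was 1 at late night, at the other 4 clock times, at 10:00 and 14:00 and for the difference between these and 18:00 and 22:00, and 0 for level between trees. Without the replicate block 1 of 3 passed at the other 4 clock times and 1 for that difference, and no such fit was made for the tests between trees. With each tree left out in turn, 0 to 3 passed for that difference, and with no filter 2 did.

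Membership moved more. The limits were met by 5 transcripts in all 72 libraries, 9 on day 1 alone, 7 on day 2 alone, 0 at 3 times the other means, and 2 to 7 with each tree left out. Of the 3, 1 remained with medians, 0 on day 2 alone, 0 at 3 times and 1 to 3 with each tree left out. With medians the late-night ratio was 3.09 for psme_t172064 and 2.59 for psme_t057585.

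Some values changed sign without passing. The ratio with all 4 other clock times is a different contrast, as it takes in 18:00 and 22:00. In it a shift after the first 4 collections does not cancel. The change in late-night ratio between days of psme_t057585 was -0.031 with no filter, -0.21 without the replicate block, -0.0059 with the tree by block term, -0.66 with all 4 other clock times and -0.11 to 0.25 with each tree left out. That of psme_t172064 was -0.16 without the block, -0.40 with all 4 other clock times and -0.068 to 0.46 with each tree left out, and that of psme_t076950 was -0.24 with all 4. At 18:00 and 22:00 the day difference of psme_t057585 was 0.012 with no filter, 0.023 without the block and -0.12 to 0.048 with each tree left out.

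Over all transcripts the number passing moved by more than 1.5 times: 2119 to 12132 for the late-night day difference (11118 as reported), 5092 to 15928 for the other 4 clock times (13667), 5672 to 16918 at 10:00 and 14:00 (15146), 643 to 6312 at 18:00 and 22:00 (3866), 716 to 8561 for their difference (5660), 5 to 2690 for the ratio between days (663), 0 to 336 for the step from 2:00 to 6:00 (97), 17824 to 96489 for level between trees (48851) and 0 to 127 for the ratio between trees (14). The settings tested from 18398 to 173795 transcripts, so these counts do not share a base. As a share of those tested, level between trees ran from 55.5% to 96.9%, the largest count giving the smallest share. The share for the late-night day difference ran from 4.01% to 39.2%. Depth limits psme_t172064 most, with 8 counts in its lowest library.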
